A study of Homo sapiens with 12 samples.

Results

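Heat shock proteins, chaperones and folding enzymes are described here in tumours of Hep3B, an established human hepatocellular carcinoma line, labelled as xenografts. The members are the genes of the authors' mRNA table whose symbols begin with the family stems HSPA, HSPB, HSPD, HSPE, HSPH, HSP90, DNAJA, DNAJB, DNAJC, BAG, CCT, PDIA or FKBP, together with SERPINH1. The rule found 41 of the 4988 genes of the table. It used names and no measured value, but the table is named by the authors as one of differing genes. The rule of that selection is not given, and a difference in a member is therefore not independent evidence.

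The study compared 3 control samples of these tumours with 3 samples given bufotalin, a bufadienolide of toad venom, of the cardiotonic steroids that bind the sodium pump. All 6 samples carry the same line and the label xenograft. The host animal, the dose, the time of treatment and what the controls received are not stated in the labels. Values are FPKM, fragments scaled for gene length and for the size of the library, so levels can be compared between genes. The labels do not say that replicates come from separate animals, so the spread behind each p-value may be technical. In bulk tumours, fewer cells of a type and less RNA per cell cannot be told apart.

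Chaperones bind unfolded stretches of other proteins and keep them from aggregating. In the HSP70 system, an HSP70 binds its client with the help of a J protein, which delivers the client and speeds ATP hydrolysis, and lets it go with the help of a nucleotide exchange factor. In the cytosol heat shock factors raise many of these genes when proteins unfold. In the endoplasmic reticulum, where secreted and membrane proteins fold, disulfide isomerases and prolyl isomerases work beside the local HSP70, and the unfolded protein response raises the local set.

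limma on log2(FPKM + 1) tested the 40 members with a mean of at least 0.5 FPKM over all 6 libraries. It called 39 of them at a Benjamini-Hochberg adjusted p under 0.05, 25 higher and 14 lower with bufotalin. Over the whole table, 93.2% of 4273 tested genes were called, 44.3% higher and 48.8% lower, so the share of members called lies near that background. Among the members, 62.5% were called higher and 35.0% lower. The 2 groups did not overlap for any of the 39, against 92.5% of the tested genes. Fold changes are log2 values of bufotalin over control on the FPKM + 1 scale, which understates the change of genes near 0. Past 1 on that scale were 3 members upward and 6 downward, while 33.0% of all tested genes were called and past 1, 7.14% higher and 25.9% lower. The median was 0.39 over the tested members and 0.13 over all tested genes. The median of all genes turned negative without bufotalin replicate 1, 2 or 3 (-0.17, -0.06 and -0.27) and with no FPKM minimum (-0.14). Locations were assigned from textbook knowledge: 21 members work in the cytosol or nucleus, 11 in the endoplasmic reticulum, 4 at the mitochondrion, and 5 were left without one.

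**Figure D1:**
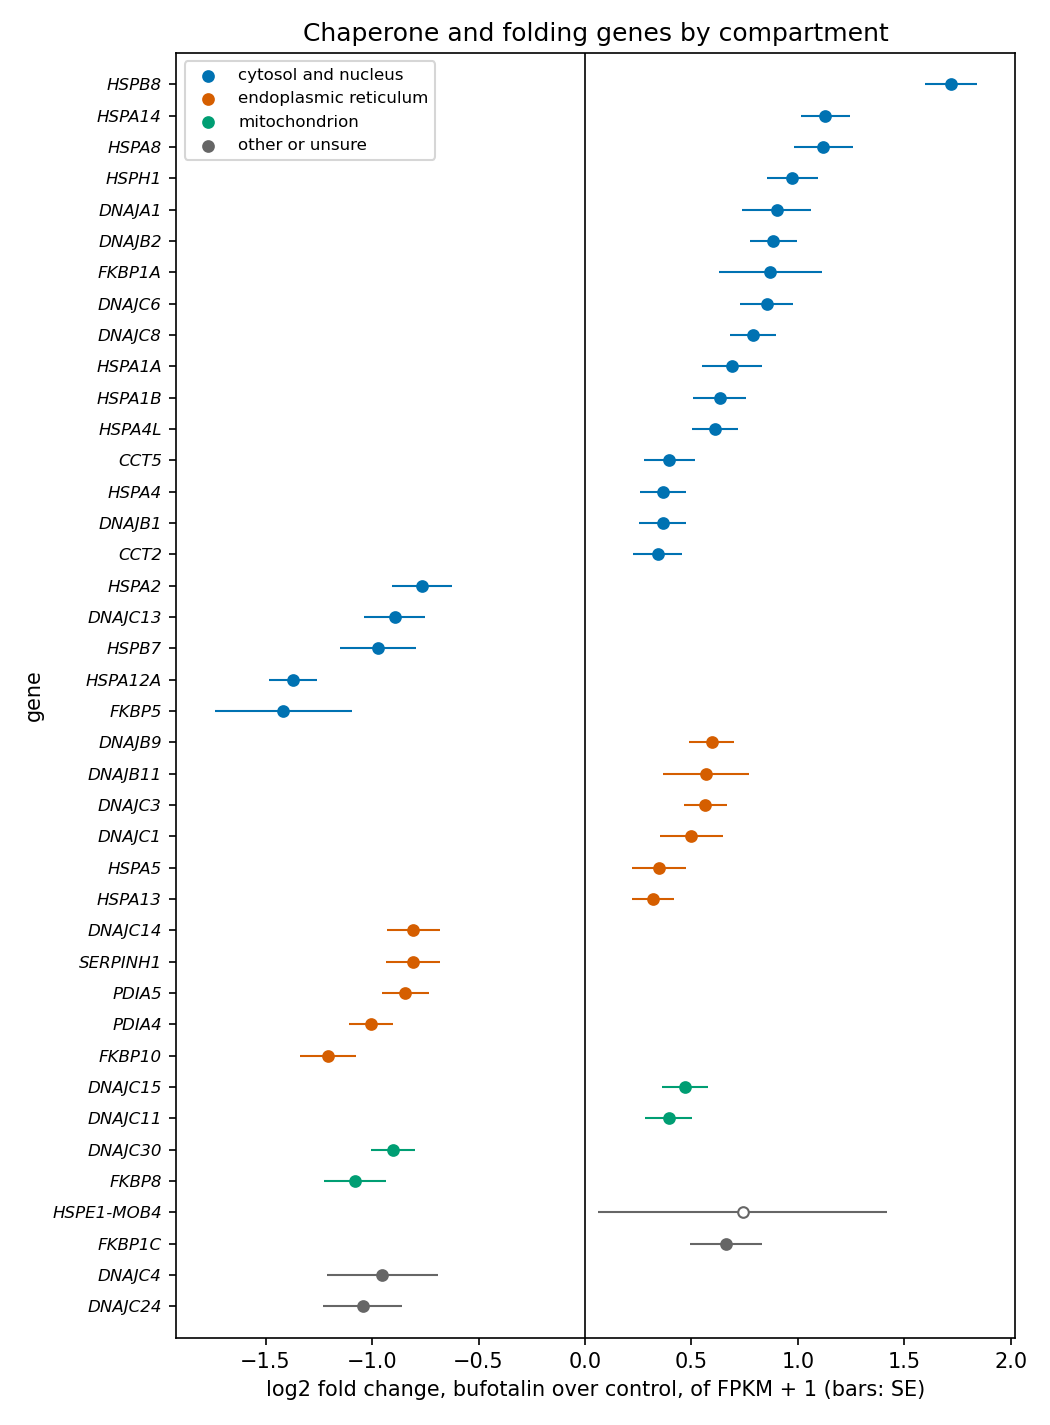
Fold change of the 40 tested members with bufotalin (x axis, log2 of FPKM + 1, bufotalin minus control; bars are SE), ordered within each location, with filled points for called genes and 1 open point for HSPE1-MOB4, which was not called. Of the 21 cytosolic and nuclear members 16 lie above 0, and the 11 endoplasmic reticulum members divide into 6 above and 5 below 0.

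The largest rise of the cytosolic HSP70 system in FPKM was that of HSPA8, the constitutive cytosolic HSP70 that also strips clathrin from vesicles. HSPA8 (chromosome 11, 123057489 to 123063230, GRCh38) read 358, 338 and 323 FPKM in control replicates 1, 2 and 3 and 849, 715 and 664 FPKM in bufotalin replicates 1, 2 and 3. It was the most abundant member in every library, and its lowest treated value was above its highest control value. The log2 fold change was 1.12 (SE 0.14, limma adjusted p = 5.53e-05). Under quantile normalization it was 0.58 and still called.

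HSPA14, an HSP70 relative that works at the ribosome, had 8.401, 10.1 and 8.59 FPKM across the controls and 20.7, 22.2 and 19.8 FPKM with bufotalin (log2 fold change 1.13, SE 0.11). The exchange factor HSPH1 (chromosome 13, 31134974 to 31162388), of the HSP110 branch, had 34.2, 37.04 and 28.5 FPKM across the controls and 66.4, 64.2 and 67.2 FPKM with bufotalin (log2 fold change 0.97, SE 0.12). Treated values of HSPH1 lay within 3 FPKM of each other, while control replicate 3 was lowest. Its relatives HSPA4L and HSPA4 rose less, from 8.58 ± 0.651 to 13.6 ± 0.693 FPKM (mean ± SD, n = 3) and from 45.1 ± 3.25 to 58.4 ± 2.75 FPKM. With quantile normalization HSPA4 had 0.10 and was not called.

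The stress-inducible HSP70 genes HSPA1A and HSPA1B rose from 62.99 ± 10.7 to 101 ± 4.92 FPKM and from 61.6 ± 8.102 to 95.6 ± 4.98 FPKM, with log2 fold changes of 0.69 and 0.63. The 2 genes lie next to each other on chromosome 6 and are near-identical. Their values stood in a ratio of 0.956 to 1.07 in all 6 libraries, and the split of reads between them is uncertain. Their log2 rise was smaller than that of HSPA8; the difference between the genes was not tested.

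The 2 other HSP70 relatives of the cytosol fell. HSPA12A, a distant and atypical relative, had 5.18, 5.53 and 6.07 FPKM across the controls and 1.59, 1.396 and 1.64 FPKM with bufotalin (log2 fold change -1.37, SE 0.11). HSPA2, known for its role in the testis, had 1.34, 2.33 and 1.82 FPKM across the controls and 0.524, 0.657 and 0.776 FPKM with bufotalin (-0.76). Both are low genes, and under quantile normalization HSPA12A had -0.74, still called, and HSPA2 had -0.03 and was not called. Of the 9 cytosolic HSP70 and HSP110 members, 7 thus rose and 2 fell, where 44.3% of all tested genes were called higher and 48.8% lower. HSPA1A and HSPA1B, which may share reads, are counted separately among the 7.

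The promoters of the members were searched for heat shock elements, the sites that heat shock factors bind, because the inducible HSP70 genes are their textbook targets. RefSeq windows of 250 bases before to 50 after a start (GRCh38.p14) were at hand for 35 of the 41 members, 47 windows in all; DNAJC1, DNAJC24, FKBP1C, FKBP8, FKBP10 and HSPA14 had none. The form with 3 units, GAA, TTC and GAA in turn with any 2 bases between neighbours, on either strand, occurred in 0.49% of all 35116 windows and in 3 of the 47 member windows (6.38%), those of HSPA8, DNAJA1 and SERPINH1. HSPA8 held it at 2 places, starting at -230 and -55. HSPA8 and DNAJA1 rose and SERPINH1, described with the endoplasmic reticulum, fell. These 3 stretches are shown 5′ to 3′ on the gene's strand, ending 20 bases after the start, with the 3 units in capitals.
HSPA8, chr11:123062117-123062386, minus strand: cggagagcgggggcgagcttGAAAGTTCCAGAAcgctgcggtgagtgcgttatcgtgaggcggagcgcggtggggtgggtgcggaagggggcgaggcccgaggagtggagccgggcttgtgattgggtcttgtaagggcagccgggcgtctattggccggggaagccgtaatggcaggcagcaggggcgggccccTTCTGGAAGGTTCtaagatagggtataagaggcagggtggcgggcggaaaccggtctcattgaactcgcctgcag
DNAJA1, chr9:33025153-33025292, plus strand: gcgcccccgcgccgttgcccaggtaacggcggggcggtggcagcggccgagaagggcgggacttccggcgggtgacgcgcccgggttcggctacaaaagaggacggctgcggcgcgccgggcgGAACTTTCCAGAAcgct
SERPINH1, chr11:75562133-75562272, plus strand: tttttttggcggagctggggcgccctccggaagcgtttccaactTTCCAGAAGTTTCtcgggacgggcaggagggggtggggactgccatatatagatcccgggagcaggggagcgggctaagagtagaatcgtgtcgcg

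The form with 2 units, GAANNTTC, reads the same on both strands and is part of every 3-unit match. It occurred in 6.77% of all windows and in 10 of 47 member windows (21.3%), of 9 genes. Of these, CCT2, DNAJA1, DNAJB1, DNAJC6, HSPA1A, HSPA1B, HSPA8 and HSPB8 rose and SERPINH1 fell. Called higher were 62.5% of all tested members and 44.3% of all tested genes. HSPA1A and HSPA1B may share reads, and CCT2 and DNAJB1 were not called under quantile normalization (0.09 and 0.13). Whether the matches go with the direction of change was not tested. The other arrangement, TTCNNGAA, occurred in 7.74% of all windows and in 5 member windows, of DNAJA1, DNAJC15, HSPA4L, HSPA8 and SERPINH1. HSPA1A and HSPB8 are shown with the GAANNTTC matches in capitals, since one is the textbook target and the other the member with the largest rise on the log2 scale. A match describes letters only, and binding was not measured.
HSPA1A, chr6:31815423-31815562, plus strand: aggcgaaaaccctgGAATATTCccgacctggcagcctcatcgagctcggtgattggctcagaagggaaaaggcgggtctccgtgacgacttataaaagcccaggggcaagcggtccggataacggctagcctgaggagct
HSPB8, chr12:119178811-119178950, plus strand: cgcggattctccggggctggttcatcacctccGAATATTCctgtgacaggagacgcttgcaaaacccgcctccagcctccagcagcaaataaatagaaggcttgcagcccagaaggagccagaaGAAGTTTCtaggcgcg

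J proteins of the cytosol and nucleus rose in 5 of 6 cases (83.3%), where 44.3% of all tested genes were called higher. DNAJA1 (chromosome 9, 33025273 to 33039907), a general HSP70 partner, had 43.6, 52.2 and 32.7 FPKM across the controls and 75.3, 85.3 and 77.9 FPKM with bufotalin (log2 fold change 0.90, SE 0.16, limma adjusted p = 0.000548). Its control values were spread, with replicate 2 highest and replicate 3 lowest, and without control replicate 3 the log2 fold change was 0.72. DNAJB2, which carries ubiquitin-interacting motifs and hands HSP70 clients to degradation, had 4.08, 4.42 and 4.77 FPKM across the controls and 9.73, 8.704 and 8.63 FPKM with bufotalin (0.89, SE 0.11). Every treated library was thus well above every control library for DNAJB2.

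DNAJC6, the auxilin that recruits HSPA8 to clathrin coats, rose from 9.13 ± 0.881 to 17.3 ± 2.11 FPKM (0.85), and DNAJC8, a J protein of the spliceosome, from 40.6 ± 3.596 to 70.8 ± 1.26 FPKM (0.79). DNAJB1, the classical heat-inducible J protein, rose from 44.4 ± 3.57 to 57.5 ± 3.39 FPKM (0.37), but was not called with quantile normalization (0.13). DNAJC13, a J protein of endosomes, fell: it had 32.1, 31.8 and 37.4 FPKM across the controls and 18.3, 14.5 and 20.7 FPKM with bufotalin (-0.89, SE 0.14).

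The 2 small heat shock proteins moved in opposite directions. HSPB8 (chromosome 12, 119178642 to 119221131), which works with BAG3 in the autophagy of misfolded proteins, had 12.7, 12.5 and 15.6 FPKM across the controls and 48.9, 43.1 and 49.00 FPKM with bufotalin. This was the largest log2 rise of all members (1.72, SE 0.12, limma adjusted p = 3.08e-06), and leaving out single libraries gave 1.66 to 1.81. HSPB7, best known in heart and skeletal muscle, had 24.1, 20.3 and 16.1 FPKM across the controls and 10.3, 7.65 and 11.5 FPKM with bufotalin (-0.97, SE 0.18).

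The chaperonin and the FK506-binding proteins each gave a pair of cytosolic members. CCT5 and CCT2, subunits of the chaperonin that folds actin and tubulin, are among the most abundant members. CCT5 had 201, 220.5 and 197 FPKM across the controls and 283, 284 and 249 FPKM with bufotalin (0.40, SE 0.12), and CCT2 rose from 123 ± 8.77 to 156 ± 9.58 FPKM (0.34). Neither rise was called under quantile normalization (log2 fold changes 0.01 and 0.09), and that of CCT2 was also lost without control replicate 1 (0.31) or bufotalin replicate 2 (0.30).

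The FK506-binding proteins, which turn prolyl bonds, divided. FKBP1A, the target of FK506 and rapamycin, rose from 33.1 ± 13.5 to 58.5 ± 5.45 FPKM (0.87, SE 0.24). Its control replicate 1 had 48.5 FPKM against 27.1 and 23.5 FPKM in replicates 2 and 3, and without it the log2 fold change was 1.18. FKBP5, an HSP90 cochaperone of steroid receptors that glucocorticoids induce, had 21.3, 22.8 and 18.3 FPKM across the controls and 9.91, 9.66 and 3.66 FPKM with bufotalin (-1.42, SE 0.32). Bufotalin replicate 3 was the lowest by far, and without it FKBP5 still fell by 1.01 on the log2 scale.

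**Figure D2:**
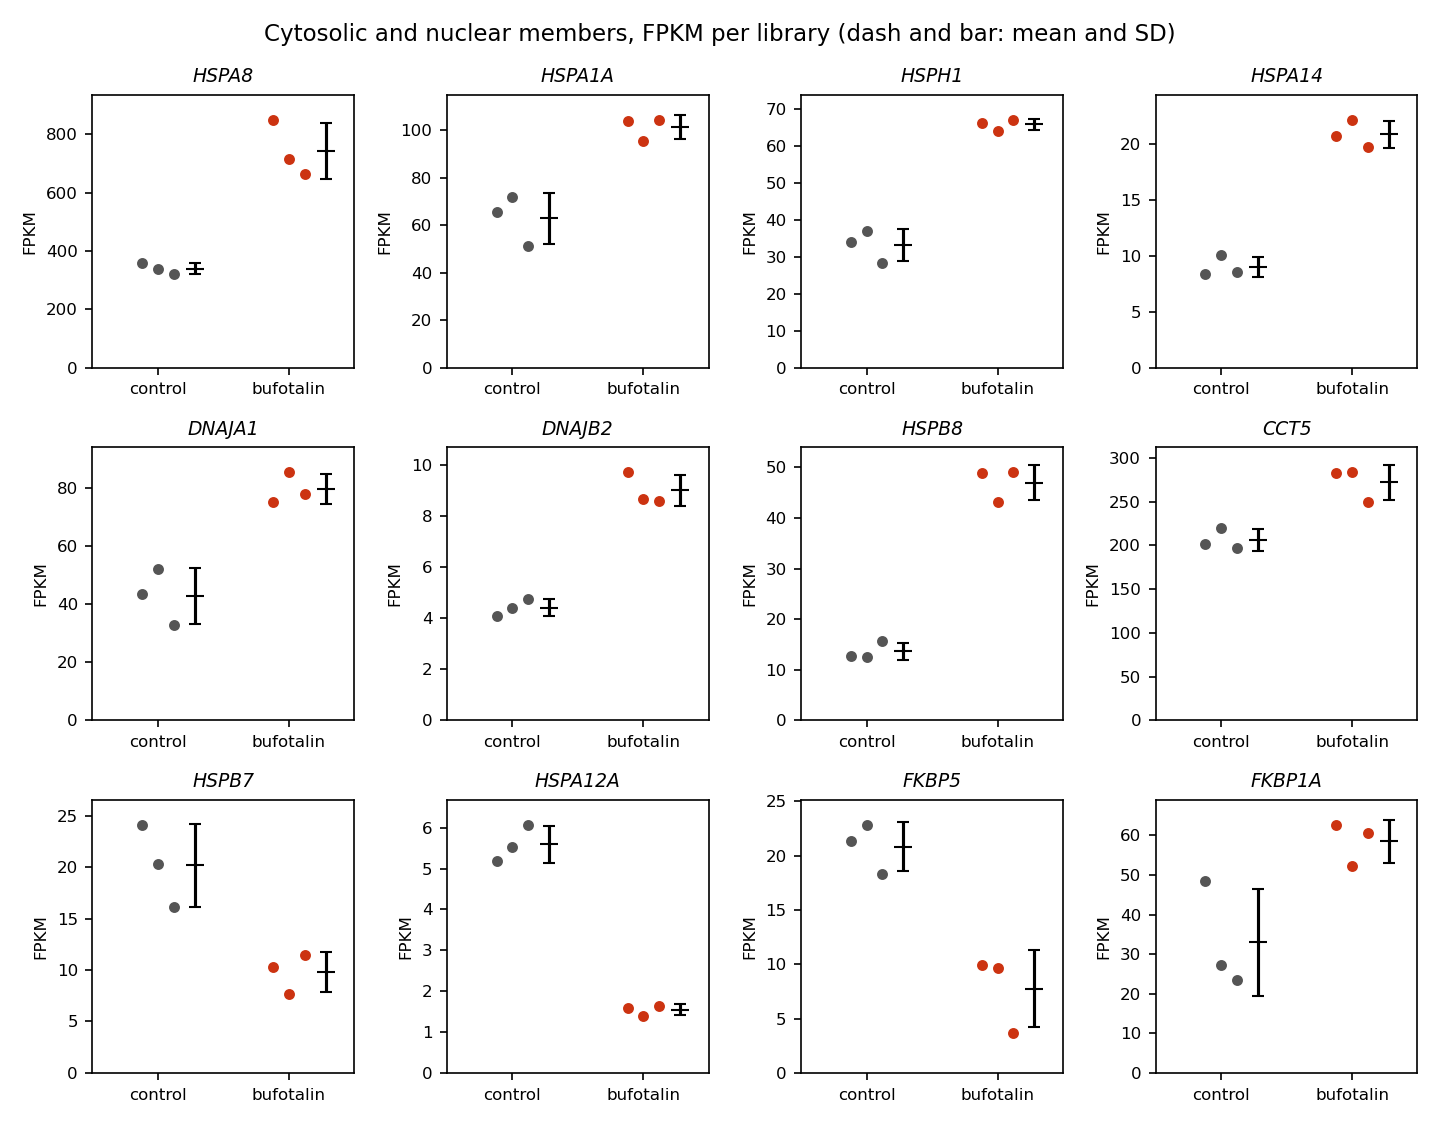
FPKM of 12 cytosolic and nuclear members in each library (y axes in FPKM from 0; points are the 3 control and 3 bufotalin libraries in replicate order; dash and bar are mean and SD). The treated points of HSPA8 at 664 to 849 FPKM lie above all of its control points, while those of HSPB7, HSPA12A and FKBP5 lie below theirs.

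From a list of 20 heat shock factors, HSP90 cochaperones and related genes, 7 were in the table, and 6 were called higher and 1 lower, where the whole table had 44.3% called higher and 48.8% lower. SGTA, a cochaperone of HSP70 and HSP90, rose from 11.1 ± 1.66 to 22.04 ± 1.07 FPKM, and IER5, an early-response gene whose product activates the heat shock factor HSF1, from 14.7 ± 0.447 to 26.9 ± 1.85 FPKM. The cyclophilin PPID, an HSP90 cochaperone, rose from 14.3 ± 2.79 to 21.1 ± 1.37 FPKM. CRYAB, a small heat shock protein outside the naming rule, fell from 1.58 ± 0.765 to 0.137 ± 0.119 FPKM, and reached the FPKM minimum through the controls alone. The remaining rises were CHORDC1, AHSA1 and HSBP1 (log2 fold changes 0.49, 0.37 and 0.37). The AHSA1 call ended in 4 of 14 other settings, and that of HSBP1 without bufotalin replicate 2. The list had a median log2 fold change of 0.49.

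In the endoplasmic reticulum, the HSP70s and their lumenal J proteins, 6 members grouped after the values were seen, were all called higher. Over all tested genes that share was 44.3%. Their log2 fold changes of 0.32 to 0.60 lay below those of HSPA8, HSPA14, HSPH1 and HSPB8. They overlapped those of other cytosolic members that rose, such as CCT2 (0.34) and CCT5 (0.40). HSPA5 (chromosome 9, 125234853 to 125241343), the BiP chaperone and sensor of the unfolded protein response, had 154, 162 and 149.7 FPKM across the controls and 173, 223 and 201 FPKM with bufotalin (0.35, SE 0.13, limma adjusted p = 0.0255). The groups did not overlap, but bufotalin replicate 1 lay closer to the controls than to bufotalin replicate 2. Dropping control replicate 1, control replicate 3, bufotalin replicate 2 or bufotalin replicate 3 ended the HSPA5 call (log2 fold changes 0.34, 0.32, 0.26 and 0.34), and under quantile normalization the sign turned (-0.01). HSPA13, another HSP70 of this compartment, had 25.2, 25.4 and 26.2 FPKM across the controls and 31.2, 33.7 and 31.7 FPKM with bufotalin (0.32), but was not called with quantile normalization (0.18).

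Among the J proteins that serve HSPA5, DNAJB9 had 8.39, 9.19 and 9.61 FPKM across the controls and 13.9, 14.9 and 13.7 FPKM with bufotalin (0.60, SE 0.11). DNAJC3, which also restrains the stress kinase EIF2AK3, had 17.7, 17.4 and 18.04 FPKM across the controls and 25.2, 28.03 and 27.03 FPKM with bufotalin (0.57, SE 0.10). For both genes the gap between groups was wider than the spread within either. DNAJC1, a membrane-anchored partner with its J domain in the lumen, had 9.57, 8.82 and 6.93 FPKM across the controls and 13.6, 10.2 and 13.2 FPKM with bufotalin (0.50, SE 0.15). DNAJB11, which binds unfolded clients directly, had 12.9, 17.2 and 9.002 FPKM across the controls and 17.2, 21.3 and 19.4 FPKM with bufotalin (0.57, SE 0.20). Control replicate 2 of DNAJB11 was almost level with bufotalin replicate 1, and the call ended without control replicate 3 or bufotalin replicate 2 or 3 (0.35, 0.50 and 0.56) and under quantile normalization (0.59).

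The endoplasmic reticulum stress element, CCAAT and CCACG with any 9 bases between them, is a textbook site of the unfolded protein response. It occurred in 0.0769% of all windows and, among members, in that of HSPA5 alone, starting at -66. The unfolded protein response element TGACGTGG (0.729% of all windows) and the C/EBP-ATF element TGATGNAAT (0.991%) had no match in the 47 member windows, which says only that these letters are not there. The HSPA5 stretch is shown with the element in capitals.
HSPA5, chr9:125241324-125241463, minus strand: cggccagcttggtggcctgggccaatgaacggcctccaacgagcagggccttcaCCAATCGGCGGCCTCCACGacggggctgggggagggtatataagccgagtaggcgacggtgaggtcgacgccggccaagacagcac

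The isomerases and the collagen chaperone among the members of the same compartment fell. This covers only genes under the naming rule. Of 12 other listed folding genes of this compartment, 7 were called higher, TMX1 among them (0.74), and 5 lower. Over all tested genes the shares were 44.3% and 48.8%. PDIA4 (chromosome 7, 149003062 to 149028662), a disulfide isomerase that forms and reshuffles disulfide bonds, had 57.6, 58.1 and 62.6 FPKM across the controls and 29.3, 27.6 and 30.4 FPKM with bufotalin (-1.01, SE 0.10, limma adjusted p = 1.88e-05). Its relative PDIA5 had 21.2, 20.3 and 18.5 FPKM across the controls and 10.03, 11.6 and 10.4 FPKM with bufotalin (-0.84, SE 0.11). For both isomerases the highest treated value was far below the lowest control value.

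FKBP10 (chromosome 17, 41812680 to 41823217), a prolyl isomerase of procollagen, had 27.01, 24.7 and 27.4 FPKM across the controls and 11.1, 12.6 and 9.09 FPKM with bufotalin. Its log2 fold change of -1.21 (SE 0.13) was the largest fall in this compartment. SERPINH1 (chromosome 11, 75562056 to 75572783), known as HSP47, binds folded procollagen on its way out of the endoplasmic reticulum. It had 20.2, 24.4 and 18.6 FPKM across the controls and 10.8, 11.5 and 12.4 FPKM with bufotalin (-0.81, SE 0.13). DNAJC14, a J protein of the membrane, had 14.7, 14.9 and 17.5 FPKM across the controls and 9.64, 7.71 and 8.32 FPKM with bufotalin (-0.81, SE 0.12). All 5 falls of this compartment were called in every setting run, with log2 fold changes of -1.31 to -0.70 as single libraries were left out.

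**Figure D3:**
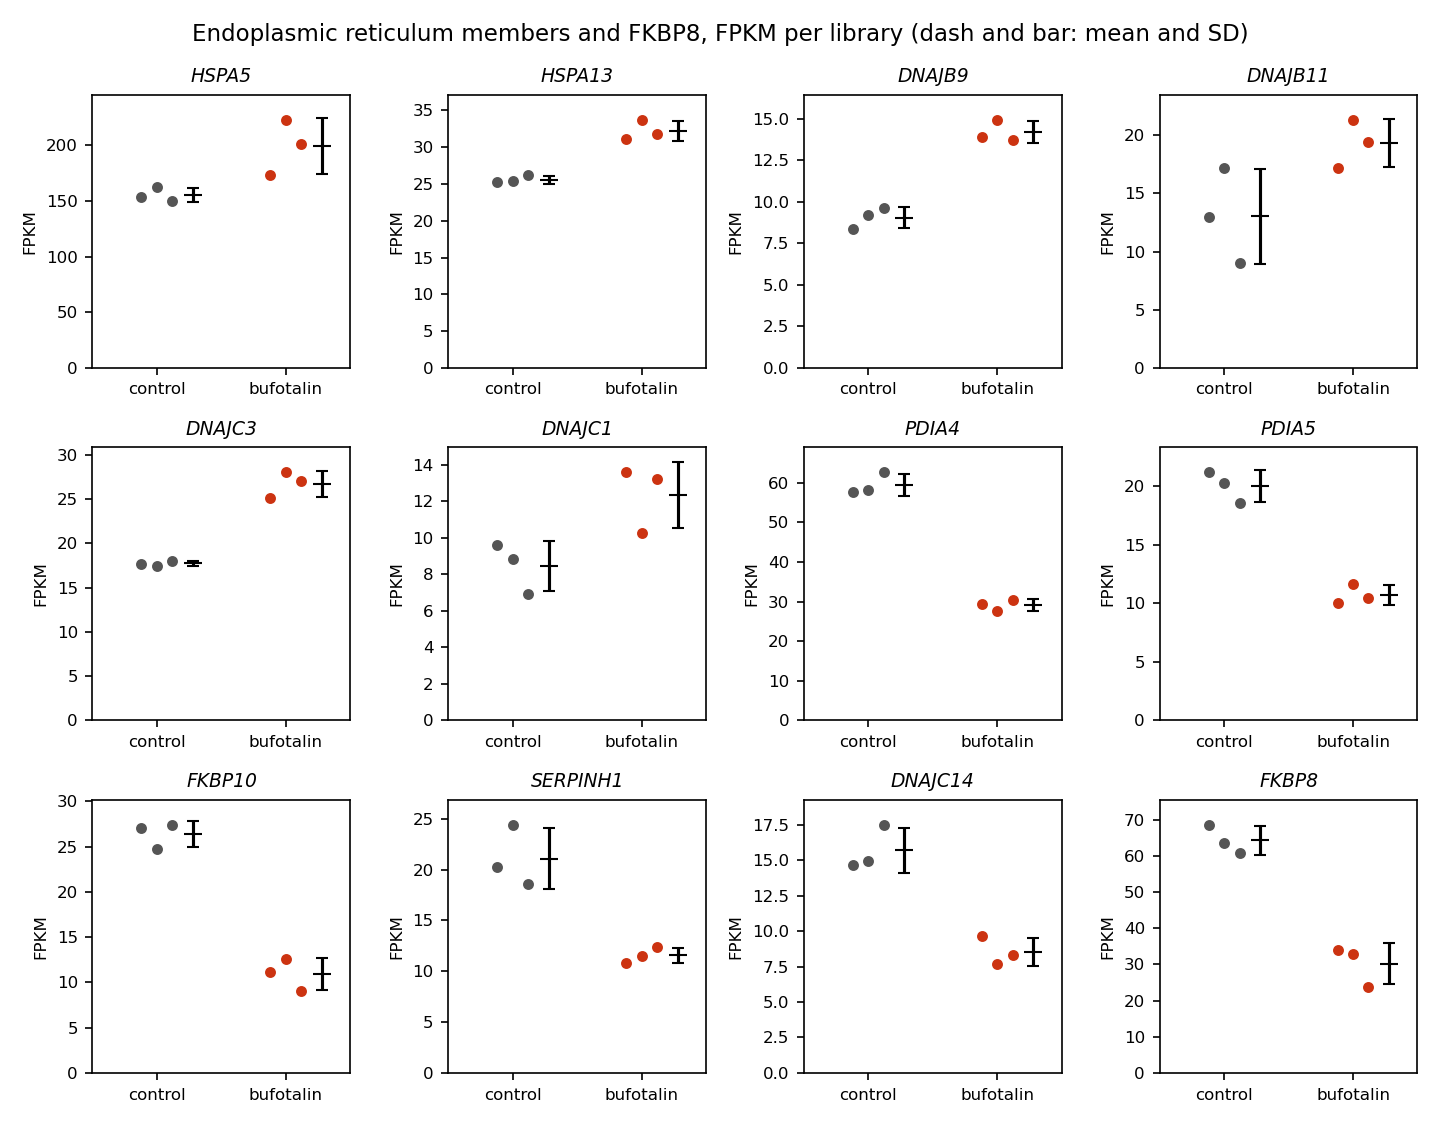
FPKM of the 11 endoplasmic reticulum members and of FKBP8, of the mitochondrial outer membrane, in each library (y axes in FPKM from 0; points are the 3 control and 3 bufotalin libraries in replicate order; dash and bar are mean and SD). HSPA5, HSPA13 and 4 J proteins lie higher with bufotalin, and PDIA4, PDIA5, FKBP10, SERPINH1 and DNAJC14 lie lower, with no overlap between groups in any panel.

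Collagen is the client of SERPINH1 and FKBP10, and the genes that modify it were listed beside collagen genes. Of 17 listed collagen-modifying genes, 9 were in the table, 8 were tested, and 7 were called lower and 1 higher, against 48.8% and 44.3% of all tested genes. P4HA3 and P4HA2, prolyl hydroxylase subunits, fell from 5.18 ± 0.476 to 0.489 ± 0.07698 FPKM and from 17.9 ± 0.9101 to 7.801 ± 0.806 FPKM. P4HA3 and PCOLCE (1.16 ± 0.200 to 0.117 ± 0.0568 FPKM), both counted as lower, reached the FPKM minimum through the controls alone. The lysyl hydroxylase PLOD1 fell from 35.8 ± 1.72 to 13.1 ± 1.25 FPKM, while its relative PLOD2 rose from 18.6 ± 1.65 to 26.6 ± 2.56 FPKM. Of 12 listed collagens, 6 were in the table and 5 were tested. COL6A1, COL5A1, COL18A1 and COL1A1 were called lower (-2.01, -1.77, -1.02 and -0.67) and COL12A1 higher (1.13).

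Markers of fibroblasts, which make much collagen, moved with these genes. Of 18 listed fibroblast markers, 8 were in the table, and all 7 tested were called lower, as were 48.8% of all tested genes. ACTA2 and PDGFRB reached the FPKM minimum through the controls alone. All 8 markers together summed to 84.2 to 88.7 FPKM in control libraries and 23.9 to 29.8 FPKM in libraries with bufotalin. Of the 8, 4 are collagens that the preceding count holds too. COL6A1, COL5A1 and COL1A1 made up most of the control sum, with control means of 28.9, 28.9 and 12.6 FPKM. COL6A2 was under 0.5 FPKM, and the contractile gene TAGLN had a log2 fold change of -1.54. Under quantile normalization ACTA2 (-0.35) and PDGFRB (0.09) were not called. The part of fibroblasts in the falls of SERPINH1 and FKBP10 was not tested. Whether reads of the host are among the values of these and the other cell type markers was not looked at.

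Other folding genes of the endoplasmic reticulum, from a list of 33 of which 12 were in the table, went both ways, 7 higher and 5 lower. These are 58.3% and 41.7%, against 44.3% and 48.8% of all tested genes. CALR, a lectin chaperone, rose from 149 ± 20.4 to 233 ± 56.7 FPKM, TMX1, a membrane-bound thioredoxin, from 11.3 ± 1.15 to 19.6 ± 2.300 FPKM, and MOGS, which trims glycans, from 4.87 ± 0.948 to 7.795 ± 2.05 FPKM. SIL1, the exchange factor of HSPA5, fell from 17.5 ± 1.03 to 5.34 ± 0.805 FPKM, opposite to HSPA5 itself. SUMF1, of sulfatase activation, fell from 11.5 ± 0.316 to 4.97 ± 0.168 FPKM, and UGGT1, which marks misfolded glycoproteins, from 30.6 ± 2.81 to 14.6 ± 2.21 FPKM. The number higher was 4 without control replicate 1 or bufotalin replicate 2, and 2 under quantile normalization. CALR was among those lost in the last 2 of these settings (log2 fold changes 0.48 and 0.27), and without bufotalin replicate 3 (0.55).

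Regulators of the unfolded protein response were split, with 8 of 21 listed genes in the table, 4 higher and 4 lower. Of all tested genes, 44.3% were called higher and 48.8% lower, so the split lies near that background. PPP1R15A and PPP1R15B, which restore translation after stress by reversing eIF2α phosphorylation, rose by log2 fold changes of 2.19 and 0.79, and NFE2L1, of proteasome gene control, by 0.47. The NFE2L1 call ended in 6 of 14 other settings, including all 3 that drop a bufotalin library. ERN1, the remaining rise, went from 3.07 ± 0.341 to 4.31 ± 0.226 FPKM (0.38), and no other setting ended its call. MBTPS1 and MBTPS2, the proteases that release ATF6, fell from 27.2 ± 2.99 to 13.5 ± 1.202 FPKM and from 34.4 ± 4.31 to 17.4 ± 1.04 FPKM. CREB3 fell too (-0.84), but was not called under quantile normalization (-0.16). CREB3L3, the remaining fall, went from 0.803 ± 0.172 to 0.207 ± 0.0506 FPKM and reached the FPKM minimum through the controls alone. It left the test in 4 settings and was not called under quantile normalization (-0.04).

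Of 26 genes listed for degradation from the endoplasmic reticulum, 8 were in the table, 3 called higher, 2 lower and 3 not called. The share called in either direction was 62.5%, against 93.2% of all tested genes. SELENOS rose from 24.8 ± 4.23 to 62.6 ± 5.18 FPKM, DERL2 by 0.53 and RNF5 by 0.33 on the log2 scale. EDEM2 fell by 1.17 and DERL3 by 1.05 on that scale. The RNF5 call ended in 5 of 14 other settings, among them control replicate 1 or 2 or bufotalin replicate 1 or 2 left out. With libraries scaled to equal medians, 6 genes of this list were called higher.

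Set side by side, cytosolic and nuclear members were called higher in 16 of 21 cases and endoplasmic reticulum members in 6 of 11. These are 76.2% and 54.5%, against 44.3% of all tested genes, and the second share lies near that background. Their median log2 fold changes were 0.63 and 0.32, against 0.13 over all tested genes. The first median is the value of HSPA1B, counted among the 16 beside HSPA1A, with which it may share reads. The second median is the value of HSPA13, the smallest of 6 rises above 5 falls, so it stands for neither side of that compartment. Under quantile normalization the medians were 0.41 and -0.01, and 12 cytosolic and 3 endoplasmic reticulum members were called higher. Scaling libraries to equal medians moved the median of all genes from 0.13 to 0.31. Relative to the median of all genes, the cytosolic median was 0.36 to 0.88 and the endoplasmic reticulum median -0.06 to 0.60 over all 15 settings.

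**Figure D4:**
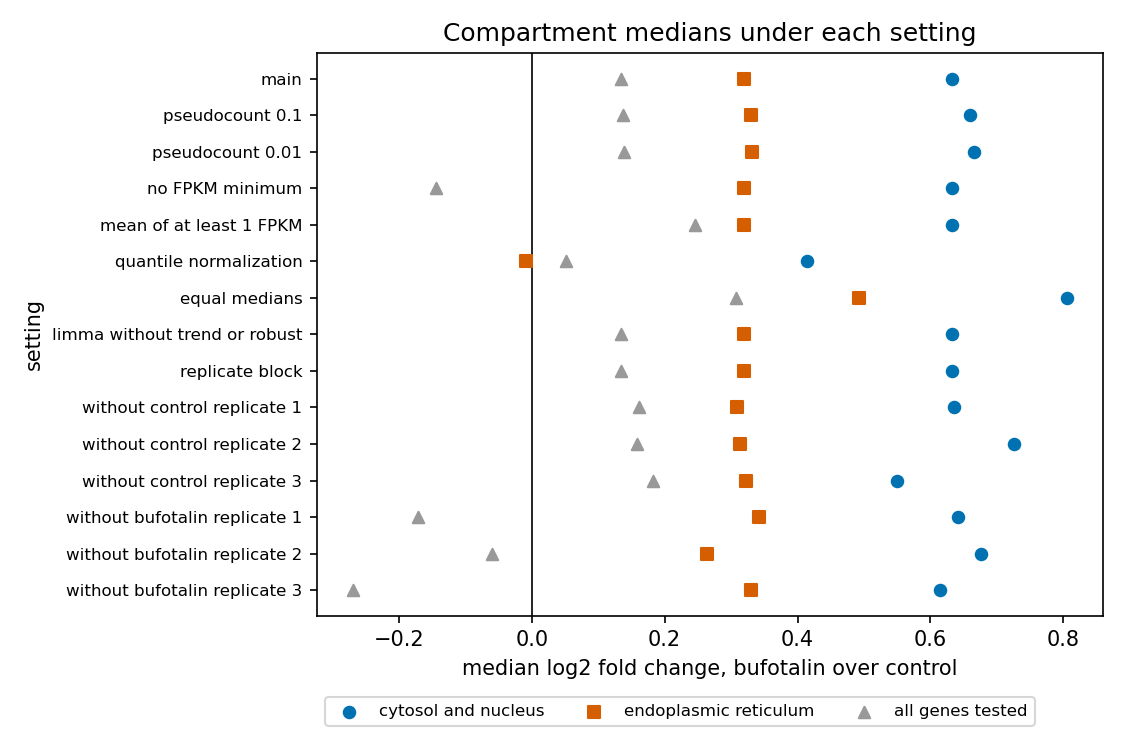
Median log2 fold change of bufotalin over control (x axis) of the cytosolic and nuclear members, the endoplasmic reticulum members and all tested genes under each setting (y axis); main is the analysis in the text. The cytosolic median stays between 0.41 and 0.81, and the endoplasmic reticulum median lies at -0.01 under quantile normalization and between 0.26 and 0.49 elsewhere.

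Summed levels were compared on the FPKM scale, where abundant members weigh most. Over the whole table, control replicates 1, 2 and 3 summed to 104737, 105803 and 102677 FPKM. Treated replicates 1, 2 and 3 summed to 121337, 118164 and 114207 FPKM, and the sums below were not scaled to these totals. The 21 cytosolic and nuclear members summed to 1193, 1211 and 1076 FPKM in control replicates 1, 2 and 3 and to 2031, 1878 and 1802 FPKM in treated replicates. With HSPA8 left out the sums were 834, 873 and 753 FPKM in the controls and 1182, 1164 and 1138 FPKM with bufotalin, so the rise was not that of HSPA8 alone. The 11 endoplasmic reticulum members summed to 369, 383 and 364 FPKM in control libraries and to 345, 402 and 377 FPKM in libraries with bufotalin. These groups overlapped in plain FPKM, while the total of the table was higher in every treated library. Within that compartment the HSP70s and lumenal J proteins summed to 219.5 to 240.2 FPKM in the controls and 274 to 331 FPKM with bufotalin. The isomerases, SERPINH1 and DNAJC14 summed to 141 to 145 FPKM in control libraries and 70.6 to 71.0 FPKM in libraries with bufotalin. This division was drawn after the values were seen and has no test. All sums cover only genes of the authors' table.

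At the mitochondrion 2 members rose and 2 fell, near the 44.3% called higher and 48.8% called lower of all tested genes. FKBP8 (chromosome 19, 18531751 to 18544077), an outer-membrane protein that anchors BCL2, had 68.6, 63.5 and 60.8 FPKM across the controls and 34.02, 32.98 and 23.7 FPKM with bufotalin (-1.08, SE 0.15). DNAJC30, tied to respiratory complex I, had 3.15, 3.29 and 2.98 FPKM across the controls and 1.35, 1.101 and 1.202 FPKM with bufotalin (-0.90), but was not called with quantile normalization (-0.18). DNAJC11, of the inner-membrane organizing complexes, had 12.8, 14.5 and 14.3 FPKM across the controls and 18.98, 16.9 and 19.7 FPKM with bufotalin (0.39). DNAJC15, of the protein import motor, had 2.46, 2.53 and 2.304 FPKM across the controls and 4.07, 3.65 and 3.55 FPKM with bufotalin (0.47). In each of these 4 genes the groups lay apart. Their summed level, most of it FKBP8, was 80.4 to 87.0 FPKM in the controls and 48.1 to 58.4 FPKM with bufotalin.

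Of the 5 members without an assigned location, DNAJC24, which takes part in making diphthamide, had 11.9, 7.66 and 8.55 FPKM across the controls and 3.24, 3.65 and 5.17 FPKM with bufotalin (-1.04, SE 0.19). DNAJC4 had 4.03, 2.93 and 1.66 FPKM across the controls and 1.49, 0.489 and 0.954 FPKM with bufotalin (-0.95, SE 0.26), and was not called with quantile normalization (-0.23). FKBP1C, a gene with a near copy in FKBP1A whose reads it may share, had 0.721, 1.12 and 0.3202 FPKM across the controls and 1.42, 1.68 and 1.93 FPKM with bufotalin (0.66). HSPE1-MOB4, a read-through of 2 neighbouring genes, was listed at 3.66 FPKM in bufotalin replicate 1 and at 0 in the other 5 libraries. It reached the FPKM minimum through that library alone and was not called. DNAJB13, of cilia, was under the minimum, at 0.0193 to 0.0990 FPKM in control and listed at 0 in treated libraries.

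The lncRNA table added 1 transcript of a member. HSPA8-209, which lies inside the HSPA8 gene (chromosome 11, 123059156 to 123060223), was listed at 0 in all 3 control libraries and at 0.289, 1.38 and 2.69 FPKM in bufotalin replicates 1, 2 and 3. It reached the minimum of 0.1 FPKM through the treated libraries alone, so it could be tested only because it was high there. With that limit, limma on log2(FPKM + 0.1) gave an adjusted p of 0.00645. Of the 465 transcripts tested, 29.2% were called higher and 73.3% in either direction. Depth was unknown, so a listed 0 gives no bound on the fold. Its level was far below the 664 to 849 FPKM of the whole gene, from which its reads may not be separable. A transcript of DNAJB14, a J protein of the same families that is no member, was listed at 0, 0.590 and 0.523 FPKM in control and at 0 in all treated libraries, and was not called (adjusted p = 0.0827).

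Facts of the libraries bear on these values. The 41 members made up 1.49% to 1.597% of the summed FPKM of the table in control and 1.96% to 2.01% in treated libraries. Within control, replicate 3 was the lowest of the 3 for 21 of the 39 called members (53.8%), against 29.0% of all tested genes, and replicate 2 was the highest for 19 of them (48.7%), against 27.1%. Members overlap another protein-coding gene of RefSeq in 10 cases, among them DNAJB1 with TECR, PDIA5 with SEC22A, DNAJB11 with TBCCD1 and HSPA14 with MSANTD7. Since strand was not given, reads of such pairs may not be told apart. Of 22 hepatocyte and liver tumour markers 3 were in the table, and ALB and AFP were not analysed here. KRT8 had 362 ± 97.5 FPKM in the controls and 524 ± 107 FPKM with bufotalin, called higher although the groups overlapped, a call that ended in 6 of 14 other settings. The summed level of 3 leukocyte markers was 3.18 to 3.53 FPKM in control libraries and 4.61 to 6.82 FPKM in libraries with bufotalin, and the 1 tested, CSF1R, was called higher (0.46). The summed level of 2 endothelial markers was 32.2 to 33.7 and 8.46 to 10.6 FPKM, with EGFL7 called lower. CDH5 had 0.0657 ± 0.0512 FPKM in the controls and 0.943 ± 0.262 FPKM with bufotalin. It reached the FPKM minimum through the treated libraries alone, and fell under it when any of them was left out.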

How the data were processed

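Per the labels, RNA of 3 control and 3 bufotalin samples was sequenced. The authors deposited gene-level FPKM for mRNA and transcript-level FPKM for lncRNA, each named as a table of differing features. The submitters' processing notes name GRCh38, DESeq2 1.20.0, featureCounts 1.5.0-p3, HISAT2 2.0.5, fastp and CASAVA 1.8, without their roles; the selection rule and strand setting are not given in the sources used here. Depth was unknown, so no interval or floor is given. Small RNA files were not used.

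limma 3.58.1 (R 4.3.3, trended robust eBayes, two-sided) was fitted to log2(FPKM + 1) of the whole table, for genes averaging 0.5 FPKM or more, with Benjamini-Hochberg adjusted p-values called under 0.05. For lncRNA the pseudocount and the minimum were 0.1. The code was tested on simulated data. Lists are described by counts and medians, with no test. A planned look at protein ends was not made. Members, locations and lists were chosen with earlier results of these data known. Every called member is named. Values of each library are given, per location, for up to 6 rises and 6 falls with the largest log2 fold change, for the 3 most abundant members and for SERPINH1. Of each list, up to 3 called genes per direction are named. COL1A1, COL6A2, ACTA2, PDGFRB, PCOLCE, CREB3L3, ERN1, CHORDC1, AHSA1, HSBP1, CLPB, HERPUD1 and the DNAJB14 transcript were named after their values were seen. Alternatives changed the pseudocount, the minimum, the scaling, the limma options, the block and the libraries. Python 3.11.15, pandas 2.3.3, numpy 2.4.6 and matplotlib 3.10.9 were also used.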

Additional observations from a re-analysis of the deposited data

How the results depend on the processing

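Of the 39 called members, 29 kept call and direction in all 14 other settings, 36 with each library left out in turn, and 39 with other pseudocounts (0.1, 0.01), no FPKM minimum or one of 1, equal medians, limma without trend and robust options, and the replicate block. Quantile normalization ended 10 calls (CCT2, CCT5, DNAJB1, DNAJB11, DNAJC4, DNAJC30, HSPA2, HSPA4, HSPA5 and HSPA13); the cause was not tested. Same-numbered control and bufotalin libraries had correlations of deviations of -0.02, 0.03 and -0.05 over 4273 genes, and differently numbered ones of -0.04 to 0.06. The labels state no pairing, and so few libraries cannot decide whether there was one. The replicate block left 39 member calls; over the whole table it called 3957 genes in place of 3981, and HSPA8-209 kept its call (adjusted p 0.0132 by limma).

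With each library left out, 36 to 39 members were called, 22 to 25 higher and 14 lower, and the medians were 0.55 to 0.73 for cytosolic and 0.26 to 0.34 for endoplasmic reticulum members. Under quantile normalization they were 0.41 and -0.0089 (the latter reversed, as was HSPA5, whose value it is, at -0.0089), with 3 endoplasmic reticulum members called higher, and with equal medians 0.81 and 0.49. The median of all genes reversed when no minimum was set (-0.14) and when bufotalin replicate 1, 2 or 3 was dropped (-0.17, -0.06 and -0.27; range over dropped libraries -0.27 to 0.18).

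Under quantile normalization 0 prefoldin, 2 endoplasmic reticulum folding and 0 hepatocyte genes were higher, and 2 unfolded protein response regulators and 0 cyclophilins lower. With a minimum of 1 FPKM, 0 cochaperones and 0 cyclophilins were lower and 0 endothelial genes higher, since low genes left the test. With no minimum, 2 leukocyte genes were higher and 1 hepatocyte gene lower. Equal medians gave 6 degradation genes higher, and the replicate block 0 hepatocyte genes. With each library left out, genes higher were 0 to 1 for prefoldin, endothelial and hepatocyte lists and 4 to 6 for endoplasmic reticulum folding. CLPB reversed with equal medians (0.0133) and without control replicate 3 (0.22, in a range of -0.35 to 0.22), HERPUD1 (-0.10) and PDGFRB (0.0944) under quantile normalization. Of 59 called list genes, 16 lost their call in at least 1 setting while tested, and 3 more (CDH5, CRYAB and PCOLCE) fell under the FPKM minimum in at least 1. HSPA8-209, tested only through its treated libraries, was called in every setting run (adjusted p 0.000549 to 0.0451 by limma). These alternatives for lists and for HSPA8-209 were added after seeing the data.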

Other observations

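Folding genes outside the naming rule gave further values. Of 15 listed cyclophilins, prolyl isomerases bound by cyclosporin, 4 were in the table. By limma 2 were called higher and 1 lower, where 44.3% of all tested genes were called higher and 48.8% lower. PPIF, the cyclophilin of the mitochondrial matrix, went up, from 62.01 ± 5.901 to 103 ± 3.93 FPKM (a log2 fold change of 0.73, SE 0.11), and PPIC, of the secretory pathway, fell from 1.54 ± 0.312 to 0.453 ± 0.147 FPKM (-0.81, and -0.10 with no call under quantile normalization; it reached the FPKM minimum through the controls alone). Of 13 listed mitochondrial chaperones and proteases, 3 were in the table. TIMM44, which tethers the mitochondrial HSP70 to the import channel, rose from 13.8 ± 3.66 to 29.4 ± 2.39 FPKM (1.06), and the protease SPG7 fell from 25.6 ± 1.98 to 17.5 ± 2.35 FPKM (-0.53). CLPB, a disaggregase, had 13.1 ± 7.06 and 10.7 ± 0.4498 FPKM and was not called.

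Prefoldin hands actin and tubulin to the chaperonin that holds CCT2 and CCT5. Of 7 listed genes 2 were in the table. VBP1, a prefoldin subunit, rose from 53.2 ± 1.94 to 68.8 ± 8.03 FPKM (0.36), a call that ended without bufotalin replicate 2 (0.27) and under quantile normalization (0.06). URI1, of a prefoldin-like complex, fell from 29.2 ± 2.46 to 16.1 ± 1.01 FPKM (-0.82).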
